A study of Mus musculus with 9 samples.

Results

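The 10 genes described here, Myo1f, Pglyrp2, Spsb1, P2rx7, Tmem151b, Kcnh5, Cdh24, Nlrc3, Vamp1 and Tle2, were chosen by their fold changes between MYC levels in these same libraries, as genes strongly lower with MYC that are not on the usual lists of T cell genes. All 10 were found by symbol among the 53380 rows of the deposited count tables, and all 10 were among the 14098 genes with enough counts to be tested. Their levels and fold changes are therefore given as a description, with SE and without p-values. RNA was sequenced from a mouse line of T cell acute lymphoblastic leukemia (T-ALL), derived from tumors of EμSRα-tTA/tet-O-MYC mice on the FVB/N background. In these cells a human MYC transgene (hMYC) is driven by the tetracycline transactivator under the EμSRα promoter, and doxycycline turns it off. The MYC on group was mock treated, the MYC intermediate group received 20 pg/mL doxycycline and the MYC off group 500 pg/mL, each for 48 hours and with 3 libraries. The groups share the line and the transgene and differ in doxycycline alone, so an effect of the drug itself and an effect of MYC loss cannot be told apart. The labels do not say whether the replicates were separate cultures, so the errors cover the spread between these libraries only.

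MYC is a transcription factor that pairs with MAX on E-box sequences and raises genes of growth, ribosome production and metabolism. High MYC also lowers other genes, in part by binding partners such as MIZ1 at their promoters. Immature T cells normally lose high MYC activity as they stop dividing and mature. The 10 genes have no common family: P2rx7 and Kcnh5 encode ion channels, Pglyrp2 and Nlrc3 proteins of innate immunity, Myo1f, Cdh24 and Vamp1 proteins of the cytoskeleton, cell adhesion and vesicle fusion, and Spsb1 and Tle2 adaptors of protein degradation and of gene repression. Tmem151b encodes a transmembrane protein.

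The transgene had 1340, 1190 and 1250 CPM (counts scaled to a common library total) in MYC on, 428, 414 and 383 CPM in MYC intermediate and 4.08, 4.01 and 3.26 CPM in MYC off. MYC intermediate thus kept 32.4% of the MYC on level, and the 3 groups did not overlap. Its log2 fold change was −1.61 ± 0.0713 (SE) from MYC on to MYC intermediate, called the first step below, and −6.79 ± 0.0995 from MYC intermediate to MYC off, called the second step. On the linear CPM scale 67.8% of the loss of hMYC RNA came in the first step, against 19.2% on the log2 scale. Library totals ran from 18705516 to 39678799 counts. Of 10 T cell markers all 10 were tested and higher in MYC off than in MYC on, so the cells expressed the defining genes of the labeled cell type at every MYC level (summed level 5115 to 5284 CPM in MYC on, 10314 to 10863 CPM in MYC off). In bulk RNA a change in the share of cells that express a gene and a change in RNA per cell cannot be told apart, and RNA per cell was not measured.

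All 10 genes rose in both steps. In each gene the 3 MYC intermediate libraries lay above the 3 MYC on libraries and the 3 MYC off libraries above the 3 MYC intermediate libraries, a pattern that 16.5% of all tested genes showed (26.0% in the first step, 26.6% in the second and 37.2% over both). The genes were chosen by differences between MYC levels, and nothing is read from the count of 10. The MYC off level was 4.71 to 16.2 times the MYC on level, and the log2 fold change over both steps ran from 2.20 in Vamp1 to 3.97 in Myo1f. Among all tested genes 27.5% were called higher in MYC off than in MYC on (edgeR quasi-likelihood test, adjusted p under 0.01), 17.4% were called higher in the first step and 9.95% in the second. A fold of over 2 with a call was rarer, at 8.72% over both steps, 3.38% in the first and 0.731% in the second. The median log2 fold change over all tested genes was 0.0079 in the first step, 0.0070 in the second and 0.029 over both.

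**Figure D1:**
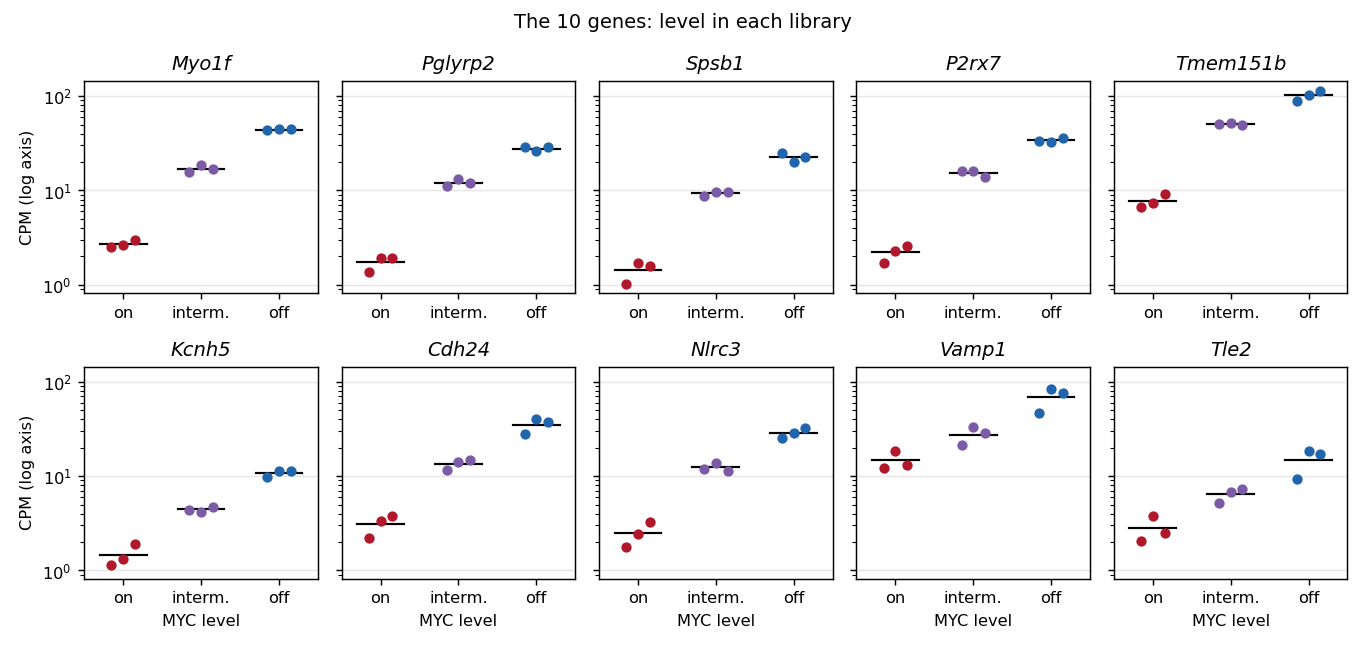
CPM on a log axis for the 10 genes at the 3 MYC levels, where points are single libraries (n = 3 at each level) and lines mark group means. Each gene rises in both steps with no overlap of the groups, from 1.44 to 14.6 CPM in MYC on to 10.8 to 102 CPM in MYC off, and the points of Vamp1 and Tle2 scatter most in MYC intermediate and MYC off.

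The ion channel genes rose by different amounts in the first step. P2rx7 (ENSMUSG00000029468.17, mm10 chromosome 5, 122643911 to 122691432, plus strand) encodes a channel of immune cells that extracellular ATP opens and that is known for inflammasome activation and T cell death. It had 1.72, 2.30 and 2.59 CPM in MYC on, then 16.1, 16.0 and 13.8 CPM in MYC intermediate and 33.6, 32.9 and 36.3 CPM in MYC off. The MYC on libraries held 35 to 76 counts of this gene, so its low level was above the limit of 3 counts. Its log2 fold change was 2.78 ± 0.136 in the first step and 1.12 ± 0.103 in the second. Kcnh5 (ENSMUSG00000034402.3, chromosome 12, 74897220 to 75177332, minus strand) encodes a voltage-gated potassium channel of the EAG type, best known from neurons. It had 1.13, 1.34 and 1.91 CPM in MYC on, then 4.41, 4.15 and 4.74 CPM in MYC intermediate and 9.85, 11.3 and 11.2 CPM in MYC off. Its steps of 1.57 ± 0.179 and 1.24 ± 0.141 were close to each other, with 23 to 56 counts per MYC on library behind the first.

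Both genes of innate immunity moved more in the first step. Pglyrp2 (ENSMUSG00000079563.9, chromosome 17, 32412459 to 32424167, minus strand) encodes an amidase that cleaves bacterial peptidoglycan and is made mainly by the liver. It had 1.38, 1.93 and 1.91 CPM in MYC on, then 11.1, 13.2 and 11.9 CPM in MYC intermediate and 28.6, 26.1 and 28.7 CPM in MYC off. Its log2 fold changes were 2.79 ± 0.138 and 1.16 ± 0.102, the highest first step of the 10 genes. Nlrc3 (ENSMUSG00000049871.13, chromosome 16, 3945007 to 3976632, minus strand) encodes a NOD-like receptor known as a brake on innate and T cell signaling. It had 1.77, 2.46 and 3.27 CPM in MYC on, then 12.0, 13.8 and 11.2 CPM in MYC intermediate and 25.6, 28.9 and 32.0 CPM in MYC off. The steps of Nlrc3 were 2.28 ± 0.167 and 1.17 ± 0.132.

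Among the genes of cytoskeleton, adhesion and vesicles, Myo1f and Vamp1 stood at opposite ends. Myo1f (ENSMUSG00000024300.16, chromosome 17, 33555707 to 33607764, plus strand) encodes a class I myosin, a motor that links membranes to actin in blood cells. It had 2.51, 2.62 and 3.00 CPM in MYC on, then 15.8, 18.4 and 17.0 CPM in MYC intermediate and 43.2, 44.3 and 44.3 CPM in MYC off. The MYC off libraries differed by little, with an SD of 0.607 CPM. The log2 fold changes of Myo1f were 2.65 ± 0.108 and 1.32 ± 0.0832, and its sum of 3.97 ± 0.105 was the highest of the 10. Cdh24 (ENSMUSG00000059674.7, chromosome 14, 54631231 to 54641364, minus strand) encodes a type II cadherin, a calcium-dependent adhesion protein. It had 2.21, 3.31 and 3.75 CPM in MYC on, then 11.7, 13.99 and 14.7 CPM in MYC intermediate and 28.3, 40.2 and 37.0 CPM in MYC off, with steps of 2.11 ± 0.172 and 1.33 ± 0.138. Replicate 1 was the lowest library of each group in Cdh24.

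Vamp1 (ENSMUSG00000030337.16, chromosome 6, 125215551 to 125245964, plus strand) encodes synaptobrevin 1, an R-SNARE that drives the fusion of vesicles with the plasma membrane. It had 12.2, 18.6 and 13.2 CPM in MYC on, then 21.2, 33.1 and 28.3 CPM in MYC intermediate and 46.2, 84.5 and 76.5 CPM in MYC off. The highest MYC on library (18.6 CPM) was near the lowest MYC intermediate library (21.2 CPM), and the gap in the second step was wider. Its first step of 0.93 ± 0.207 was the smallest of the 10 genes, and its second step was 1.28 ± 0.191. Vamp1 alone had a second step above its first, by 0.35 with an SE of 0.343, so the order of its steps was near the error. With a term for the replicate number the second step exceeded the first by 0.33 with an SE of 0.160. Over all fits the first step minus the second ran from −0.67 to −0.04. The second step thus stayed above the first, but at the least by far less than the SE of 0.343.

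Spsb1 and Tle2, the adaptors, differed in the same way. Spsb1 (ENSMUSG00000039911.13, chromosome 4, 149896283 to 149955043, minus strand) encodes a SOCS box protein that brings targets such as inducible nitric oxide synthase to a CUL5 ubiquitin ligase. It had 1.03, 1.71 and 1.57 CPM in MYC on, then 8.84, 9.74 and 9.68 CPM in MYC intermediate and 24.7, 19.9 and 22.6 CPM in MYC off. Its steps were 2.71 ± 0.165 and 1.21 ± 0.120, with 21 to 46 counts per MYC on library. Tle2 (ENSMUSG00000034771.15, chromosome 10, 81574561 to 81590845, plus strand) encodes a Groucho corepressor, which binds transcription factors and silences their targets. It had 2.07, 3.80 and 2.52 CPM in MYC on, then 5.24, 6.78 and 7.35 CPM in MYC intermediate and 9.22, 18.3 and 17.1 CPM in MYC off. The steps of Tle2, 1.23 ± 0.261 and 1.15 ± 0.219, were equal within their errors (difference 0.08 ± 0.409).

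Tmem151b (ENSMUSG00000096847.1, chromosome 17, 45541952 to 45549677, minus strand) had the highest mean level of the 10 genes per kilobase at every MYC level. It had 6.64, 7.43 and 9.17 CPM in MYC on, then 50.5, 52.2 and 49.9 CPM in MYC intermediate and 89.8, 102 and 114 CPM in MYC off. The MYC intermediate libraries lay close together, with a coefficient of variation of 2.33%, and the MYC off libraries were more spread. Its second step of 0.96 ± 0.0926 was the smallest of the 10, and its first step was 2.71 ± 0.110.

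The genes thus differed in the first step far more than in the second. Their ranks, given below, make it likely that this contrast was in part fixed by the choice of genes, so it is a description. First-step log2 fold changes ran from 0.93 to 2.79 with an SD of 0.696 over the 10 genes, and second-step changes from 0.96 to 1.33 with an SD of 0.111. Myo1f, Pglyrp2, Spsb1, P2rx7 and Tmem151b had first steps between 2.65 and 2.79. Nlrc3 and Cdh24 followed at 2.28 and 2.11, then Kcnh5 at 1.57, Tle2 at 1.23 and Vamp1 at 0.93. The first step exceeded the second by 1.32 ± 0.161 in Myo1f, 1.50 ± 0.243 in Spsb1, 1.63 ± 0.204 in Pglyrp2, 1.66 ± 0.202 in P2rx7 and 1.75 ± 0.168 in Tmem151b. In Nlrc3 and Cdh24 it did so by 1.10 ± 0.253 and 0.77 ± 0.263, and in Kcnh5 the difference of 0.33 ± 0.274 was near its error. Among all tested genes 1.7% were called for a first step above the second and 0.184% for the opposite (edgeR). Among the 310 genes that were called higher in MYC off past a log2 fold change of 2, as all 10 members were, 21.6% were called for a first step above the second and 0 for the opposite. No gene of the 10 moved in 1 step alone.

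**Figure D2:**
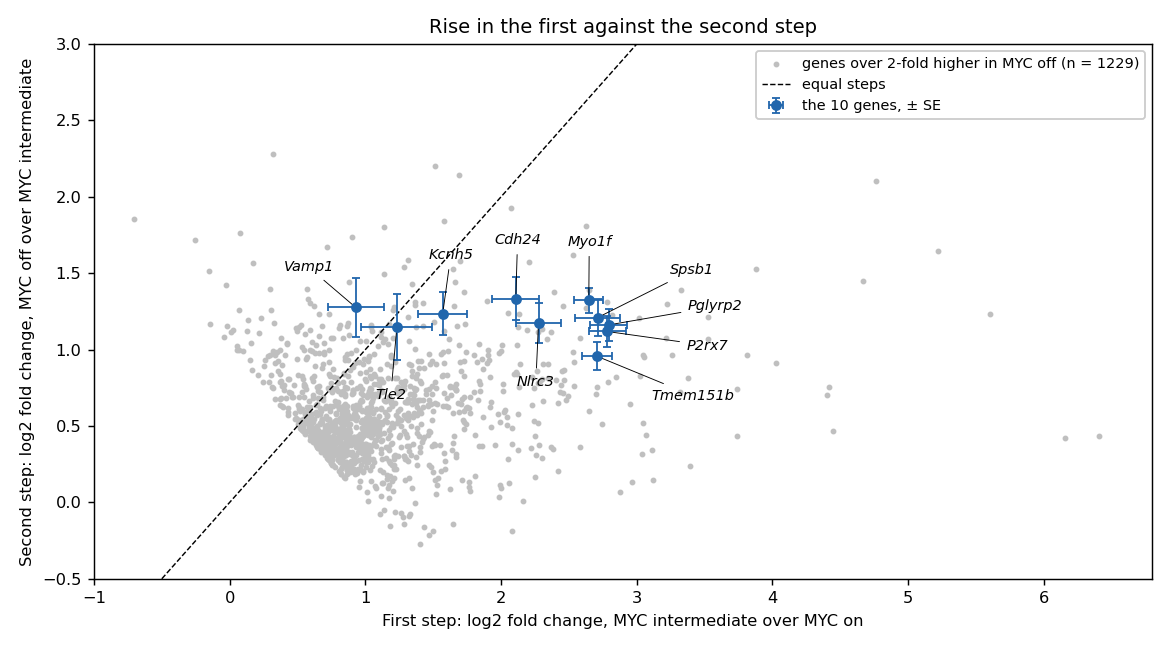
Log2 fold change of the second step (vertical) against that of the first step (horizontal) for the 10 genes (blue, with SE) and for the 1229 genes called higher in MYC off than in MYC on by over 2-fold (gray), with a dashed line where both steps are equal. The 10 genes form a horizontal band between 0.96 and 1.33 in the second step and spread from 0.93 to 2.79 in the first, with Vamp1 left of the line. The band was probably in part fixed by the choice of genes.

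The ranks of the members make it likely that single steps entered their choice. Ranks were taken among called genes with no overlap of libraries and a mean of at least 10 CPM in 1 group, without predicted genes and pseudogenes. By the second step Cdh24, Myo1f, Vamp1, Kcnh5, Spsb1, Nlrc3, Pglyrp2 and Tle2 ranked 1, 2, 3, 4, 6, 8, 9 and 10. P2rx7 ranked 12 and Tmem151b 31. By the first step Pglyrp2, P2rx7, Spsb1, Tmem151b and Myo1f ranked 6, 7, 8, 9 and 11. Nlrc3, Cdh24, Kcnh5, Tle2 and Vamp1 ranked 18, 25, 56, 108 and 234 by that step. At the edge of the second-step ranking Tle2 (1.15 ± 0.219) stood just ahead of Uba7 at rank 11 (1.12 ± 0.141). By the change over both steps Tmem151b was at rank 10 (3.66 ± 0.111), beside Etv5 at rank 11 (3.66 ± 0.0999). The narrow band of second-step values was thus probably in part fixed by the choice of genes. The same holds for the close first steps of Pglyrp2, P2rx7, Spsb1, Tmem151b and Myo1f.

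On the log2 scale 9 of the 10 genes had made over 50% of their rise by MYC intermediate. The share was 73.9% in Tmem151b, 71.3% in P2rx7, 70.6% in Pglyrp2, 69.2% in Spsb1 and 66.7% in Myo1f. It was 66.0% in Nlrc3, 61.2% in Cdh24, 56.0% in Kcnh5, 51.8% in Tle2 and 42.1% in Vamp1. Among the 1229 genes over 2-fold higher in MYC off, 84.3% had a share above 50%, with a median share of 0.657. Among the 310 past a log2 fold change of 2, 92.6% did, with a median of 0.690. A count of 9 of 10 was near these backgrounds. The call that Tle2 lay above 50% rested on single libraries, since its share ran from 0.474 to 0.572 when each library was left out in turn.

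On the linear CPM scale the second step was the larger in all 10 genes, so the order of the steps turned in the 9 genes other than Vamp1. Between 23.7% (Vamp1) and 45.8% (Tmem151b) of the added CPM came in the first step. Of the 10 genes 0 passed 50%, against 45.8% of the 1229 genes and 36.1% of the 310 genes past a log2 fold change of 2. The genes had reached 38.4% (Cdh24) to 49.9% (Tmem151b) of their MYC off level in MYC intermediate, with a median of 42.5%. Among the 1229 genes this level had a median of 66.1%, and 14.97% of them were under 50%. The ranks above make it likely that the second step entered the choice of genes, so the difference from this background is a description. For hMYC itself the linear scale put 67.8% of the loss in the first step, where the 10 genes made under 50% of their rise.

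**Figure D3:**
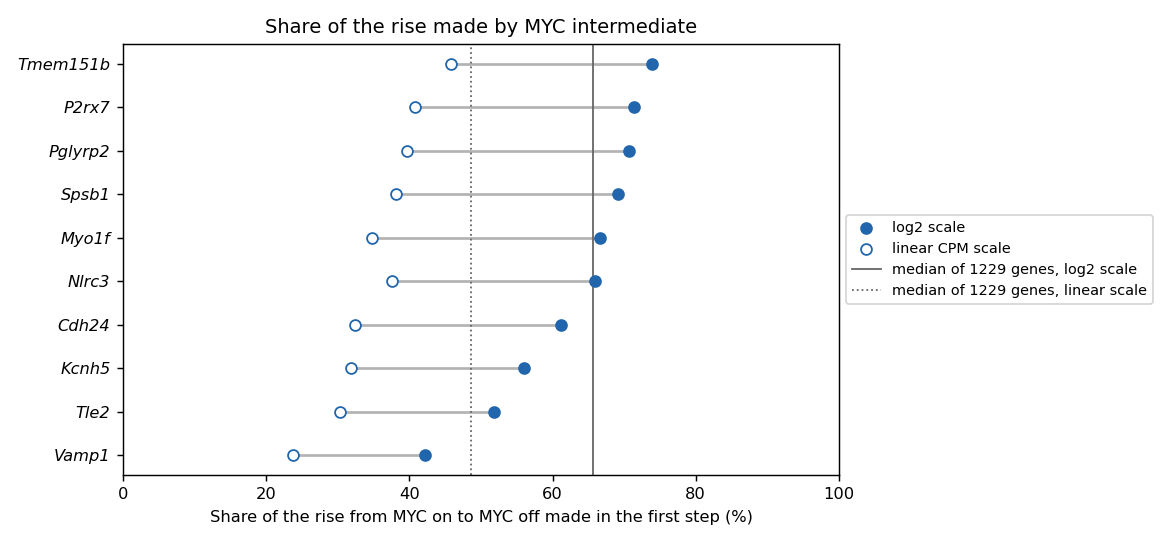
Share of the rise from MYC on to MYC off made in the first step, in percent, on the log2 scale (filled circles) and on the linear CPM scale (open circles) for the 10 genes, with the median of 1229 genes over 2-fold higher in MYC off (solid line for log2, dotted line for linear). On the log2 scale 9 of 10 genes lie above 50%, from 42.1% in Vamp1 to 73.9% in Tmem151b, and on the linear scale all lie under 50%.

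Levels were compared between genes per kilobase of the deposited gene length. In MYC off Tmem151b had 21.01 ± 2.51 CPM per kilobase (SD, n = 3), followed by Pglyrp2 with 12.4 ± 0.643, Cdh24 with 10.1 ± 1.77, Myo1f with 8.94 ± 0.124 and Vamp1 with 6.79 ± 1.99. P2rx7 (5.74 ± 0.299), Spsb1 (5.09 ± 0.549), Nlrc3 (4.08 ± 0.455), Kcnh5 (2.66 ± 0.201) and Tle2 (2.39 ± 0.792) were lower. The libraries of neighbors in this order overlapped for Cdh24 and Myo1f, for Vamp1 and P2rx7, P2rx7 and Spsb1, Spsb1 and Nlrc3, and Kcnh5 and Tle2. In MYC on the levels were 0.327 to 1.60 CPM per kilobase, with Vamp1 (1.44 ± 0.341) next to Tmem151b (1.60 ± 0.266), and P2rx7, Kcnh5, Nlrc3 and Spsb1 overlapped in a row. Vamp1 thus dropped from rank 2 in MYC on to rank 5 in MYC off.

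In several genes the same library of a group was the lowest. MYC on replicate 1 was the lowest MYC on library in all 10 genes, as it was in 40.8% of the 1229 genes over 2-fold higher in MYC off and in 34.5% of all tested genes. In Vamp1, Tle2 and Cdh24 replicate 1 was the lowest library in all 3 groups. In Tle2 it lay 0.37, 0.27 and 0.59 log2 units below the mean of MYC on, MYC intermediate and MYC off, and in Vamp1 0.23, 0.34 and 0.50. With a term for the replicate number in the fit the SE of the first step fell from 0.207 to 0.0974 in Vamp1 and from 0.261 to 0.166 in Tle2, with fold changes of 0.93 and 1.26. What a replicate number marks is not given in the labels, and its part in these values was not tested.

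**Figure D4:**
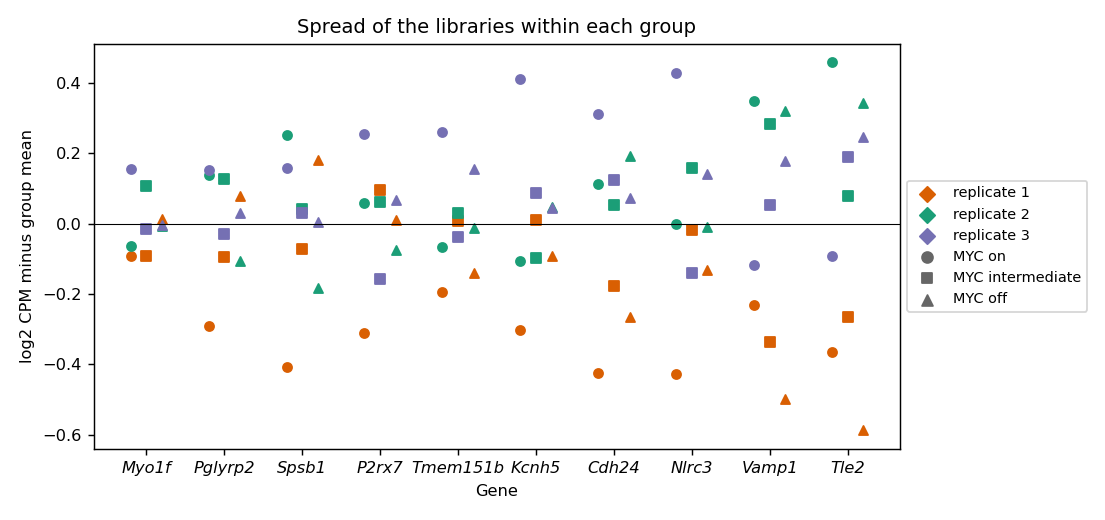
Deviation of each library from its group mean (log2 CPM) for the 10 genes, with color for the replicate number and shape for the MYC level. Replicate 1 is lowest in MYC on in every gene and lowest at all 3 MYC levels in Cdh24, Vamp1 and Tle2, down to −0.59 in MYC off for Tle2.

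Over the 9 libraries the 10 genes had similar profiles. Pearson's r of log2 CPM ran from 0.893 to 0.999 over the 45 pairs of members, with a median of 0.986. These points share the same libraries and the same choice for a rise with MYC loss, so r is a description. The lowest values were those of Vamp1 and Tle2 with the other genes (0.893 for Vamp1 and Tmem151b), while Vamp1 and Tle2 had r = 0.988 with each other. Of 10943 protein-coding genes 1120 to 1325 had r above 0.95 with each of the other 8 genes, against 224 with Vamp1 and 266 with Tle2.

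For each member the 2 tested protein-coding genes with the highest r were looked up. Myo1f was most like Atp2a3, a calcium pump of the endoplasmic reticulum in blood cells (r = 0.9988), and Sit1, an adaptor of T cell receptor signaling (r = 0.9988). Pglyrp2 and Spsb1 were both most like Ppp1r16b, followed by Lsp1, an actin-binding protein of leukocytes, for Pglyrp2 and the kinase gene Prkch for Spsb1. P2rx7 was most like Tax1bp3 and the costimulatory receptor gene Cd27, and Tmem151b was most like Shkbp1 and the kinase gene Prkcb. Nlrc3 was most like Plekhg2 and Bcl11b, a transcription factor of the T cell lineage. Cdh24 was most like Adgrg5 and the diacylglycerol kinase gene Dgka, and Kcnh5 was most like Emsy and Kmt2e. Vamp1 and Tle2 shared Cfap74, next to Pkmyt1 for Vamp1 (r = 0.9934) and Synrg for Tle2 (r = 0.9946). These genes differed in size of change, from a log2 fold change over both steps of 0.48 in Synrg to 2.79 in Lsp1.

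The promoters of the 10 genes had no sequence feature in common among those searched. RefSeq (GRCm38.p6) gave a window of 250 bases before to 50 after the start for all 10 genes, and a second window for P2rx7. The E-box CACGTG, the best known MYC and MAX site, was in 0 of the 10 promoters, against 7.15% of all 32851 windows and 10.0% of those of tested genes (either strand), and CACGCG was in 0 against 9.27% and 17.2%. Other 6-letter E-boxes were found in Myo1f (CAGCTG at −211, in 16.3% of all windows and 15.01% of those of tested genes) and in Vamp1 and Kcnh5 (CAGGTG at −7 and −55, in 20.2% and 18.4%). The runt motif TGTGGT was in Myo1f (−19) and Tmem151b (−130), against 16.8% and 12.8%, and the TCF/LEF motif CTTTGA was in P2rx7 (−99, second window), Pglyrp2 (−221 and −40) and Myo1f (−119), against 16.0% and 12.3%. The forkhead motif TGTTTAC and the TATA box TATAAA were in 0 of the 10, against 3.65% and 13.6% of all windows and 2.504% and 6.74% of those of tested genes. None of these motifs overlaps another as written, and a match or its absence says only what letters stand in these windows.

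CpG content split the 10 promoters in equal parts. Spsb1, Vamp1, Tle2, Cdh24 and Tmem151b had a CpG observed over expected ratio of at least 0.6, as had 35.8% of all windows and 69.7% of those of tested genes. The ratio was lowest in Nlrc3 (0.0926) and highest in Spsb1 (0.899). In the genes at 0.6 or more first steps ran from 0.93 (Vamp1) to 2.71 (Spsb1). In the others they ran from 1.57 (Kcnh5) to 2.79 (Pglyrp2). The smallest first steps, in Vamp1 (0.737) and Tle2 (0.893), were thus at CpG-rich promoters. Myo1f (0.238) and Tmem151b (0.704) had first steps of 2.65 and 2.71, and Vamp1 had a ratio near that of Cdh24 (0.745). A relation of the ratio to the steps was not tested. The 250 bases before the start are shown for the CpG-poor promoters of Myo1f and Nlrc3 and the CpG-rich promoters of Tmem151b and Cdh24, with each CpG in capitals, as a view of how unlike the promoters of genes with like profiles are. They lie at chr17:33555457-33555706 (plus strand, 4 CpG), chr16:3976633-3976882 (minus strand, 2 CpG), chr17:45549678-45549927 (minus strand, 12 CpG) and chr14:54641365-54641614 (minus strand, 22 CpG).
Myo1f: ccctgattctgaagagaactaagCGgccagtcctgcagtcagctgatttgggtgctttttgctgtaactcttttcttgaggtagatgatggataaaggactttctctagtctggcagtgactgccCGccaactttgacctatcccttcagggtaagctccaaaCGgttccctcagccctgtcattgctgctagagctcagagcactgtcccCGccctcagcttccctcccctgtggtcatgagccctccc
Nlrc3: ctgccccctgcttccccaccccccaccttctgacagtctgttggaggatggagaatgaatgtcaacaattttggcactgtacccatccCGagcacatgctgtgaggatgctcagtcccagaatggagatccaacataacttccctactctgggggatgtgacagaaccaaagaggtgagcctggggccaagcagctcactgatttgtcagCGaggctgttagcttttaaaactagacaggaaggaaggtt
Tmem151b: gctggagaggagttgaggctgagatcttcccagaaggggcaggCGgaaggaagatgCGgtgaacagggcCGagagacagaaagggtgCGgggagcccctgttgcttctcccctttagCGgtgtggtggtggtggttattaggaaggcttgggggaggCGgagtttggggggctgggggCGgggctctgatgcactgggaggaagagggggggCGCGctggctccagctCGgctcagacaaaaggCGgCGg
Cdh24: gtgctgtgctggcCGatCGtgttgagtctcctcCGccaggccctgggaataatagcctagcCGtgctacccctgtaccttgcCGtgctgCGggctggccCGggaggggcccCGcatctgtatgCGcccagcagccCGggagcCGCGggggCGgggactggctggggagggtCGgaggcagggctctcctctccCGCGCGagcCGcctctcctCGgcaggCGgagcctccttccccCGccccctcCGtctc

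Few relatives of the 10 genes changed as much. The 10 were chosen for a large rise and the relatives were not, so this contrast is a description. Of 67 listed genes of the same families 66 were found, 18 had no counts and 29 were tested, of which 12 were called higher in MYC off than in MYC on and 3 lower (edgeR, against 27.5% and 27.4% of all tested genes). Their median log2 fold change was 0.36, beside 0.029 over all tested genes. In the first step 7 relatives were called higher and 1 lower, against 17.4% and 17.2% of all tested genes. In the second step 7 were called higher and 1 lower, against 9.95% and 14.7%. The 7 became 3 without MYC off replicate 2 and 4 when MYC off replicate 1 or 3, or MYC intermediate replicate 3, was left out. The largest rise was that of Kcnh3, a potassium channel gene of the ELK type (7.42, 18.1 and 32.3 CPM in the 3 groups, 2.07 ± 0.111). Its relative Kcnh2, which encodes the cardiac ERG channel, rose by 0.86 ± 0.122, while Kcnh1, Kcnh7 and Kcnh8 had no counts.

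Among NOD-like receptor genes Ciita, the activator of MHC class II genes, rose by 1.99 ± 0.358 and Nod1, a sensor of peptidoglycan fragments, by 1.09 ± 0.227, both at low levels (1.37 and 2.78 CPM in MYC off). Of the Groucho genes Aes, Tle6 and Tle3 rose by 0.85, 0.85 and 0.51 and Tle1 fell by 0.94 on the log2 scale, from 104 to 55.6 CPM. Tle4 was not called (0.49 ± 0.393). The class I myosin genes Myo1g and Myo1h rose by 0.45 and 0.57, and Myo1c was not called (0.13 ± 0.0677). Of the P2X receptor genes P2rx1 rose by 0.36 and P2rx3 fell by 0.60, and P2rx4, the neighbor of P2rx7, was not called (0.06 ± 0.138).

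Spsb3 rose by 0.67 ± 0.0645, and Spsb2 had −1.08 ± 0.321 at about 1 CPM. The call of Spsb2 was lost without MYC on replicate 1, 2 or 3, MYC intermediate replicate 2, or MYC off replicate 1 or 3, and with DESeq2 on all libraries (adjusted p up to 0.0403, edgeR or DESeq2). Of the VAMP genes only Vamp2, the other synaptobrevin, was called (0.68 ± 0.112), among 6 tested, against 3 with a replicate block and 2 without MYC off replicate 2. No relative of Pglyrp2 or Tmem151b had enough counts to be tested, and of 12 type II cadherin genes 9 had no counts and Cdh22 was the 1 tested (−0.07 ± 0.480).

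**Figure D5:**
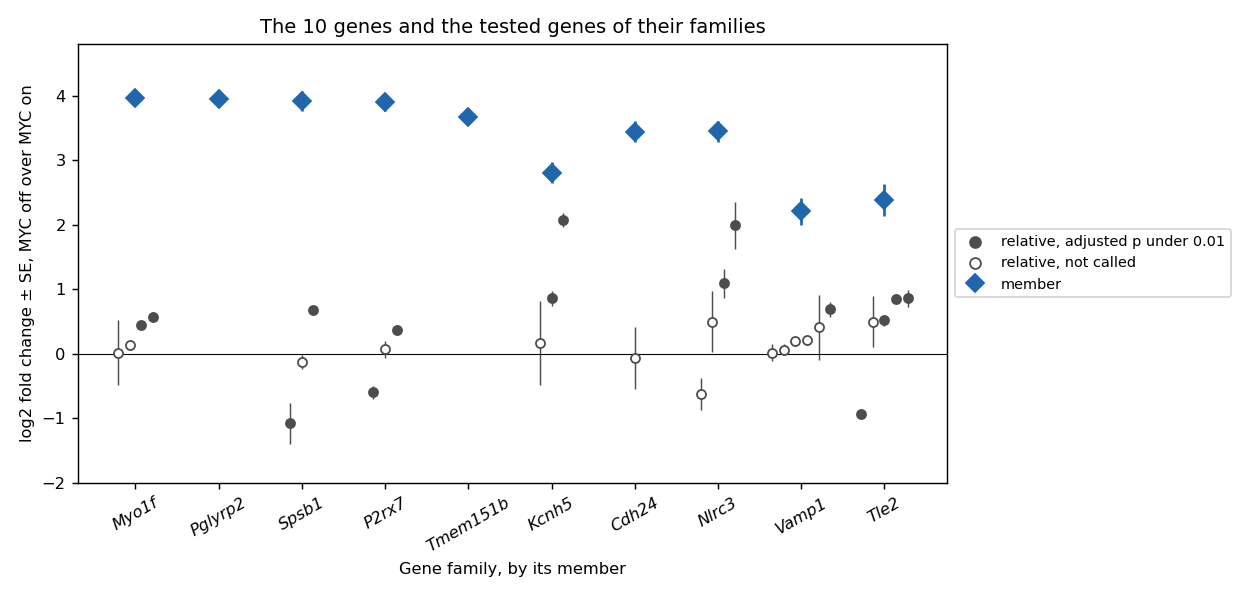
Log2 fold change of MYC off over MYC on with SE for the 10 genes (blue diamonds) and the tested genes of their families (circles, filled where called at an adjusted p under 0.01 with edgeR). Each of the 8 genes with tested relatives lies above all of them, and the nearest relative is Kcnh3 at 2.07 beside Kcnh5 at 2.81. The 10 genes were chosen for a large rise and their relatives were not, so this order is in large part fixed by the choice.

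Genes that work with the members were listed too. Of 75 such genes 48 were tested, of which 24 were called higher in MYC off than in MYC on and 9 lower, against 27.5% and 27.4% of all tested genes, with a median log2 fold change of 0.21. Around P2rx7, all 6 tested genes of the list on extracellular ATP and NAD were called higher. Among them were Gsdmd, the pore-forming executor of pyroptosis (4.01, 9.29 and 16.9 CPM, 2.05 ± 0.130), Pycard, the inflammasome adaptor ASC (156, 307 and 363 CPM, 1.18 ± 0.0736), and Adora2a, an adenosine receptor gene (2.11 ± 0.334). Cd38, which breaks down NAD, and Il18 had no counts, and the inflammasome genes Nlrp3 (the sensor), Casp1 (the protease) and Il1b (a product) had 2, 1 and 3 counts over all libraries.

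Around Spsb1, the receptor gene Tgfbr2, whose product SPSB1 is known to target, rose by 1.58 ± 0.0836 from 20.5 to 63.0 CPM. The ligase gene Cul5 fell by 0.37 on the log2 scale. Nedd8, the modifier that activates cullins, had −0.29 ± 0.0829, a call that was lost without MYC on replicate 1 or 3, MYC intermediate replicate 2, or MYC off replicate 2 or 3 (adjusted p up to 0.0397, edgeR). Around Nlrc3, Tmem173, which encodes the DNA sensor adaptor STING, rose by 1.84 ± 0.0822 and Pik3r1 by 1.42 ± 0.0813, and Traf3 fell by 0.99. Of that list 4 of 12 genes were called higher and 2 lower, against 27.5% and 27.4% of all tested genes. The 4 became 2 without MYC on replicate 1 or 2 or MYC off replicate 1, where Tbk1 and Rela lost their calls.

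Around Vamp1, 8 of 14 tested exocytosis genes were called higher and 3 lower, against 27.5% and 27.4% of all tested genes. The median log2 fold change over the 14 was 0.29. The 8 became 5 when MYC off replicate 1 or 3, or MYC on replicate 3, was left out. Stx1a rose by 1.80 ± 0.230 at up to 2.16 CPM, Stx11, a syntaxin of cytotoxic granule release, by 0.75 ± 0.129, and Stx2 by 0.73 ± 0.0668. Around Tle2, 3 of 7 tested DNA-binding partners of Groucho proteins were called higher and 2 lower, against 27.5% and 27.4% of all tested genes. Their median log2 fold change was 0.097. Among those called higher, Runx1, a runt factor that binds Groucho proteins, rose by 0.92 ± 0.0688 and Prdm1 by 0.98 ± 0.182. Around Cdh24, Jup, which encodes plakoglobin, rose from 253 to 662 CPM (1.35 ± 0.0729), while the classical cadherin genes Cdh1, Cdh2, Cdh3 and Cdh4 had no counts.

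Several members lie over or beside genes that also changed, and the libraries were made with a kit that does not mark strand, so reads of a gene and of an overlapping partner cannot be told apart. Tcte1 overlaps Tmem151b on the opposite strand and shares 729 exonic bases with it, 15.1% of the exonic bases of Tmem151b. Its counts rose with those of Tmem151b, from 1.42 to 8.19 and 16.8 CPM (3.51 ± 0.142), beside 7.75, 50.8 and 102 CPM for Tmem151b. Both values are uncertain to the extent of these shared bases. How much of the Tcte1 counts came from reads of Tmem151b was not tested, so a rise of Tcte1 itself is not shown. Gm13070, antisense to Spsb1, rose from 0.169 to 1.55 and 3.69 CPM (4.22 ± 0.333) and shares 103 bases, 2.34% of the exonic bases of Spsb1. Gm15917, antisense to Tle2, rose by 2.53 ± 0.320 and shares 98 bases (1.58%).

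Vamp1 overlaps Cd27 and Tapbpl without shared exonic bases. Cd27 rose by 2.28 ± 0.0754 and Tapbpl by 1.68 ± 0.0757. Both had most of their rise in the first step (1.69 and 1.15, against 0.59 and 0.54 in the second), unlike Vamp1 (0.93 and 1.28). Gm17606, which overlaps Cdh24 without shared exonic bases, was not called (0.32 ± 0.157). In all, 5 of 6 tested overlapping genes were called higher over both steps, against 27.5% of all tested genes. Tcte1, Gm13070 and Gm15917 are among them and share exonic bases with members that were chosen for their rise. Their calls are thus not independent of that choice, and nothing is read from this count.

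Of 15 tested protein-coding genes next to a member, 10 were called higher, 2 lower and 3 not (27.5% and 27.4% of all tested genes were called higher and lower), with a median log2 fold change of 0.43. Aes and Tle6 beside Tle2, both called higher, and P2rx4 beside P2rx7, not called, were also counted among the relatives. Rasal3, a Ras GTPase-activating protein gene beside Pglyrp2, rose by 2.11 ± 0.0628 and Nfkbie, an inhibitor of NF-κB beside Tmem151b, by 1.99 ± 0.0673. Adamts10 beside Myo1f rose by 0.86 ± 0.120, of which 0.78 came in the second step. Slc25a33, a mitochondrial pyrimidine carrier gene beside Spsb1, fell by 2.51 on the log2 scale. The call of Ift81 beside P2rx7 (0.45 ± 0.111) was lost without MYC on replicate 3 (adjusted p = 0.0149, edgeR), and that of Cluap1 beside Nlrc3 (−0.34 ± 0.0922) without MYC on replicate 1 or 2 or MYC off replicate 3 (adjusted p up to 0.0205, edgeR).

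Several of the 10 genes are best known from cells other than T cells, and markers of those cells were measured beside them. Of 10 neuronal markers 3 had no counts and neither of the 2 tested, Tubb3 and Slc17a7, was called (adjusted p = 0.664 and 0.0898, edgeR). Their summed level was 19.0 to 26.0 CPM in MYC on against 23.1 to 25.3 CPM in MYC off. Most of that sum was Tubb3 (21.2, 24.2 and 22.7 CPM in the 3 groups), while Slc17a7 had 0.362, 0.535 and 0.695 CPM, and their part in the levels of Kcnh5 and Vamp1 was not tested. Of 7 hepatocyte markers, listed because the liver makes Pglyrp2, 5 had no counts and the other 2, Alb and Apob, had 1 count each over all libraries.

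Of 11 myeloid markers, listed because phagocytes express Myo1f and P2rx7, 5 had no counts (Lyz2, Adgre1, Cd14, S100a8 and S100a9). Of the 4 tested, 2 were called higher in MYC off than in MYC on and 1 lower, against 27.5% and 27.4% of all tested genes. The summed level of the list was 27.0 to 31.5 CPM in MYC on, then 33.1 to 36.4 CPM in MYC intermediate and 41.7 to 45.3 CPM in MYC off. It moved through Itgam, an integrin gene that some lymphocytes share, which rose by 2.46 on the log2 scale, while Csf1r, the receptor of macrophage growth factor, fell by 0.38. Fcgr3 was also called higher (1.93, at up to 0.70 CPM), a call lost without any 1 of the MYC on libraries, MYC intermediate replicate 2 or MYC off replicate 3, and with DESeq2 (adjusted p up to 0.0541, edgeR or DESeq2). Of 7 NK cell markers Ncr1, Klrd1, Klrk1 and Klra8 had no counts, while the cytotoxic granule genes Prf1 and Gzma, which T cells also express, rose by 3.22 and 3.21. Of 7 B cell markers 5 had no counts and Ighm fell by 1.41 on the log2 scale. Of 6 markers of stroma and endothelium 2 had no counts and Pecam1, which is also found on T cells, rose by 1.27. The T cell marker genes rose with the 10 genes, by a median of 0.96 and by 2.54 in Trac, and the part of these cell states in the rise of the 10 genes was not tested.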

How the data were processed

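RNA of 9 libraries was analyzed, 3 per MYC level, with groups taken from the labels. Per the labels, cDNA was made with oligo(dT) priming (SMART-Seq v4) and libraries with Nextera XT. The submitters list cutadapt 1.16, STAR 2.5.4b, featureCounts and mm10 in their processing notes, whereas the annotation release and strand setting of the counting are not given in the sources used here. The authors deposited raw counts per gene, a score column with counts per kilobase, FPKM values, TPM values and a fraction column with the rank of each gene. Comparisons used the deposited counts, and the deposited TPM values served as an alternative. Every table had 53380 rows, and GENCODE M21 matched 53274 identifiers.

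Counts were fitted in R 4.3.3 with edgeR 4.0.16 (quasi-likelihood F test, TMM, default count filter, 14098 genes, all 9 libraries, group as the term), with two-sided Benjamini-Hochberg adjusted p under 0.01 as a call. The code was tested on simulated data. Log2 CPM used a prior count of 2. Fold changes are relative to the scaled library total. The limit of 3 counts covers counting error only, because PCR copies of 1 molecule were not marked as such.

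The members and gene lists were chosen with earlier results of these data known. Of the members 5 were named for MYC on against MYC off, and for the other 5 the contrast is not given. A test of the difference of steps had been planned for the first 5. Their ranks made it likely that single steps had also entered the choice, so no p-value is given for a member. Named genes are the 10 members, hMYC, up to 3 called genes per list with the largest change and at least 1 CPM in a group, the 2 genes most like each member, and overlapping or nearest genes. Genes named with no counts, not called or as markers were added after their values were seen.

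As a check of pairing, deviations from the group means were correlated over 8887 genes between libraries with the same replicate number. For MYC on with MYC off r was 0.42, 0.29 and 0.26 (numbers 1 to 3), for MYC on with MYC intermediate 0.15, −0.22 and −0.19, and for MYC intermediate with MYC off 0.40, 0.02 and 0.09. Libraries with different numbers were not compared, so these values do not show whether the numbers mark pairs. Results that a replicate block changes are given with that block. Alternatives were other scalings, filters and thresholds, DESeq2 1.42.0, leaving out each library, and a linear or TPM scale for the shares. Features of the proteins were not analysed here.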

Additional observations from a re-analysis of the deposited data

How the results depend on the processing

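The sign of each step and of the change over both steps was the same in all 10 members under every alternative run, and on the log2 scale the fitted difference of steps changed sign only in Tle2, from −0.14 to 0.34 over these fits. On the linear CPM scale 0 members had over 50% of the rise in the first step, where the log2 scale gave 9. Leaving out each library gave 8 to 9, and the deposited TPM values gave 8. The count of genes higher in the second step (1403) became 2379 at an adjusted p under 0.05 and ran from 852 (without MYC off replicate 2) to 1330 with each library left out, with 926 without MYC off replicate 3. Genes whose first step exceeded the second (240) numbered 584 at 0.05, 695 with no filter and 367 with DESeq2, and 113 (without MYC intermediate replicate 2) to 322 with each library left out. They numbered 153 and 147 without MYC on replicate 1 or 2, and 157 without MYC off replicate 2 or 3. Genes with the opposite order (26) numbered 138, 155 and 109 under the same 3 settings. With each library left out they ran from 6 (without MYC intermediate replicate 1) to 64 (without MYC off replicate 1), with 13 and 12 without MYC on replicate 1 or 3, 9 without MYC intermediate replicate 2 and 8 without MYC off replicate 2. A replicate block gave 73 genes with the opposite order and moved no other of these counts by over 1.5 times. A looser threshold raises these counts by construction. Without MYC off replicate 1 the counts for both orders of the steps rose, to 322 and 64. The cause of the changes other than that of the threshold was not tested. In MYC on the members had 21 to 387 counts per library, which limits the precision of their first step.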
